A study of Mus musculus with 61 samples.

Results

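A group of 6 receptors of the TNF receptor superfamily was followed through the first 72 h of CD4 T cell activation with and without the cytokine IL-27. They were taken as every probe set whose platform gene symbol was Tnfrsf4, Tnfrsf9, Tnfrsf18, Tnfrsf1b, Cd27 or Fas, which gave 9 of the 20173 probe sets with 1 gene name and 6 of 12291 named genes. The whole series comprises 61 Affymetrix arrays. Naive C57BL/6 CD4 T cells were stimulated with anti-CD3 and with a further antibody that the labels write as anti-CD8, each at 1 µg/ml. Control arrays are titled ctrl, and IL27 arrays stand for the same culture with IL-27 at 25 ng/ml, although the protocol text with IL-27 is attached to every sample, and every sample is called Tr1 cells derived with IL-27. HT_MG-430A arrays covered 18 times (0.5 to 72 h) with 26 arrays in each arm, in duplicate at 8 of the times and singly at 10. The other 9 arrays, of type Mouse430A_2, held ctrl at 0 h, a ctrl and an IL27 array at 4, 16 and 48 h, and 48 h arrays titled GFPP and GFPN, which the labels do not explain. Times are bare numbers in the titles and were read as hours. The labels do not state whether arrays stand for separate cultures or mice, and p-values therefore reflect the spread among these arrays, which may be technical. Each fit joins several times, so that spread also holds changes between times.

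Receptors of this superfamily carry no enzyme of their own. Most recruit TRAF adaptors to their cytoplasmic tails and so switch on NF-kB and MAP kinase signalling, while those with a death domain, such as Fas, can assemble a complex that activates caspases. In T cells Tnfrsf4 (OX40), Tnfrsf9 (CD137) and Tnfrsf18 (GITR) are receptors known to be induced by activation that costimulate effector cells and are also found on regulatory T cells. Cd27 costimulates and is already present on naive T cells, Tnfrsf1b (TNFR2) binds TNF and lymphotoxin alpha, and Fas is the receptor of Fas ligand. IL-27 is a cytokine related to IL-12.

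The 2 genes whose IL-27 difference passed the test in a window, Fas and Tnfrsf1b, are shown by the 250 bases before their transcription start, written 5′ to 3′ on the gene's own strand (RefSeq, GRCm38.p6). Capitals mark TTCNNNGAA, the core to which STAT dimers are known to bind.

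Fas, chr19:34290409-34290658, plus strand: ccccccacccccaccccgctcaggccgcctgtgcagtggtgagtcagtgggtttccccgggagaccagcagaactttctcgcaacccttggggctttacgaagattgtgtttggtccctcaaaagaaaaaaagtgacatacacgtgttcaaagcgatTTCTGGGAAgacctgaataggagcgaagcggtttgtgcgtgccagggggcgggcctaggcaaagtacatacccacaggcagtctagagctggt

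Tnfrsf1b, chr4:145246871-145247120, minus strand: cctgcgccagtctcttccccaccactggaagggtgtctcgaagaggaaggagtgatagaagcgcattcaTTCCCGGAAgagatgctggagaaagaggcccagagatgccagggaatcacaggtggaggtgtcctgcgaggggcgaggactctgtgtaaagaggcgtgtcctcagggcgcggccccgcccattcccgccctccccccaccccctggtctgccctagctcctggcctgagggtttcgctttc

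The Fas match lay 93 to 85 bases before the start and the Tnfrsf1b match 181 to 173 bases before it. All 6 genes matched the RefSeq promoter table, Tnfrsf9 with 2 starts. The same letters were in the promoter of Tnfrsf18, 99 to 91 bases before the start, and before the second start of Tnfrsf9, 136 to 128 bases before it. They were not found before the start of Tnfrsf4, of Cd27 or before the first start of Tnfrsf9. Over all 32851 promoters searched, 7.02% held this motif, which reads the same on both strands. TGANTCA, the AP-1 motif, was present before Fas (211 to 205 bases from the start) and before the second Tnfrsf9 start (15 to 9 bases), against 6.75% of all promoters. GGGANTTCC, a form of the NF-kB motif searched on both strands, was found before the second Tnfrsf9 start (42 to 34 bases) and in 1.43% of all promoters, and TCACACC, a T-box motif also searched on both strands, was in none of the 7 member promoters and in 3.33% of all. No matched stretches overlapped, and a match is a description of the letters. Tnfrsf4, Tnfrsf9, Tnfrsf18 and Tnfrsf1b lie on chromosome 4, with Tnfrsf4 and Tnfrsf18 next to each other with 0 protein-coding genes between them, Cd27 on chromosome 6 and Fas on chromosome 19.

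Values are the intensities deposited by the authors, on a linear scale, and levels are compared only within a probe set. A difference is the IL27 value less the ctrl value of log2(intensity + 32), a scale that understates changes at low intensity, fitted with limma and given with its SE. Times were grouped into an early window (0.5 to 4 h, 4 times, 5 arrays per arm), a middle window (8 to 20 h, 6 times, 9 arrays per arm) and a late window (25 to 72 h, 8 times, 12 arrays per arm). A gene was called at an adjusted p under 0.05 over all genes tested. All 6 receptors passed the filter on dim genes. Array medians ran from 27.97 to 36.62 on HT_MG-430A and from 70.66 to 78.90 on Mouse430A_2, and precision is limited by how many arrays there are. The ctrl array at 12 h stood apart: over 7163 genes its highest correlation with any other array was 0.871, against at least 0.977 for the rest. Of 7 measured CD4 T cell markers all lay above the array's median on some arrays, with a summed level of 6531 to 19860 in ctrl and 8991 to 20640 with IL-27, while Cd8a never lay above it. Cd8b1, the other CD8 marker, was tested, and the sum of both ran from 100.3 to 325.6 in ctrl. Of 8 myeloid markers 4 were tested, with Cd14, Itgam and Adgre1 never above the array's median and a summed level of 119 to 380 in ctrl and 110 to 510 with IL-27. None was called early, 1 was higher with IL-27 in the middle and 1 lower late, where 2.32%, 10.7% and 18.5% of genes were called. In ctrl 3 of 3 fell from early to middle, where 64.9% of genes were called. The part of these markers in the receptor values was not tested. No NK or dendritic cell marker passed the filter. In bulk RNA, fewer cells with a transcript and less of it per cell cannot be told apart.

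Receptor transcripts split by how they moved with time in culture. In control cells Tnfrsf4, Tnfrsf9 and Tnfrsf18 rose from the early to the middle window and Tnfrsf1b and Cd27 fell, so 5 of 6 were called where 64.9% of 6961 genes were. These are averages over windows: Tnfrsf9 in ctrl already stood at 835 at 4 h, above its middle mean of 575. From the middle to the late window Fas and Tnfrsf18 rose and Tnfrsf1b and Cd27 fell again, 4 of 6 against 48.1% of genes. With IL-27 all 6 were called from early to middle, 3 up and 3 down, against 68.5% of 6954 genes, and 5 of 6 from middle to late, against 59.9%. A large share of all genes was called in each of these contrasts, and the courses are described here for their sizes.

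**Figure D1:**
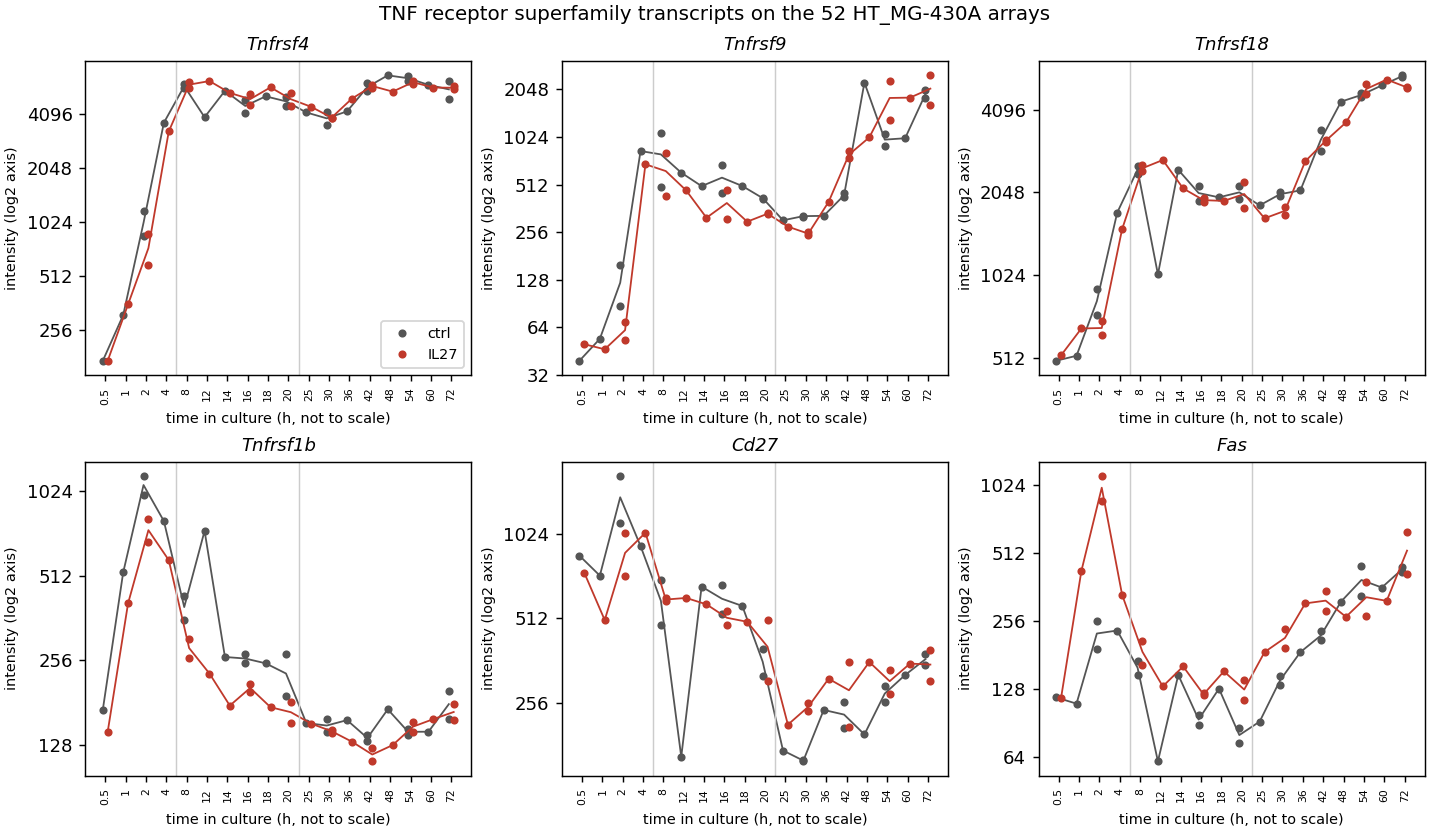
Intensity of each receptor's probe set (log2 axis) against time in culture in hours, not to scale, for the 52 HT_MG-430A arrays, with 1 point per array and lines through the means of each arm at each time (grey, ctrl; red, IL27; vertical lines, window limits). Fas with IL-27 reached 1122 and 868 at 2 h, where the ctrl arrays were at 193 and 257, and the 12 h ctrl array stood off the neighbouring times of its arm for Tnfrsf18, Tnfrsf1b, Cd27 and Fas.

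Fas, the death receptor, was the receptor with a called early difference: with IL-27 it was higher within 1 h. Probe set 1460251_at read 117, 110, 193, 257 and 232 in ctrl at 0.5, 1, 2, 2 and 4 h, and 116, 426, 1122, 868 and 334 with IL-27. The arms were level at 0.5 h, and from 1 h on each of the 4 IL27 arrays was above every ctrl array of the window. The ratio of IL27 to ctrl was 3.87 at 1 h, 4.42 at 2 h and 1.44 at 4 h. Over the early window the mean intensity was 182 in ctrl and 573 with IL-27, a difference of 1.23 ± 0.20 (95% interval 0.83 to 1.64, limma adjusted p = 0.00012). It was the 1 receptor of 6 called in this window, in which 2.32% of 7163 genes were. Without the 2 h arrays it was 0.72 (adjusted p = 0.26), and without the arrays of title suffix d 1.13 (adjusted p = 0.059), with adjusted p from 1.4e-06 to 0.26 over 30 alternatives.

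The Fas difference shrank after the first hours. In the middle window ctrl arrays ran from 61.1 to 170 with a median of 98.4, and IL27 arrays from 114 to 209 with a median of 140. IL27 was higher at all 6 times, but the ranges overlapped and the difference of 0.34 ± 0.15 (0.04 to 0.64) had an adjusted p of 0.14. In the late window ctrl ran from 91.6 to 447 (median 271) and IL27 from 186 to 637 (median 294), with a difference of 0.25 ± 0.13 (-0.01 to 0.51, adjusted p = 0.19). IL27 was higher at 25, 30, 36, 42 and 72 h and lower at 48, 54 and 60 h. The change of the effect from early to late was -0.98 ± 0.24 (adjusted p = 0.0068), and Fas was the 1 receptor of 6 called in that contrast, in which 7.09% of genes were. Without 2 h it was -0.47 (adjusted p = 0.42) and without suffix d -0.92 (adjusted p = 0.15), in a range of adjusted p from 0.00018 to 0.42. From middle to late, Fas rose in both arms, by 1.02 ± 0.23 in ctrl (adjusted p = 0.00067) and by 0.93 ± 0.25 with IL-27 (adjusted p = 0.0025). From early to middle it fell by 1.45 ± 0.31 with IL-27 (adjusted p = 0.00022), or by 0.73 without 2 h (adjusted p = 0.027), while in ctrl the change was -0.56 ± 0.29 (adjusted p = 0.086).

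Tnfrsf1b, the TNF receptor that lacks a death domain, was lower with IL-27 at 16 of 18 times, among them all of the early and middle windows. Probe set 1418099_at read 171, 525, 993, 1159 and 801 in ctrl at 0.5, 1, 2, 2 and 4 h, and 142, 408, 674, 812 and 582 with IL-27. Both arms were lowest at 0.5 h and highest at 2 h, and at each time the ctrl value was above the IL27 value. The early difference was -0.41 ± 0.12 (means 730 and 524, adjusted p = 0.053). It was called in 4 of 30 alternatives, and adjusted p ran from 0.0015 to 0.88. Among the 4, leaving out the 12 h ctrl array or the whole 12 h time gave the same result (-0.41 ± 0.08, adjusted p = 0.0015). The estimate did not move there, and only its SE shrank.

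In the middle window Tnfrsf1b was lower with IL-27 than in ctrl. The ctrl arrays ran from 191 to 739 with a median of 269, and the IL27 arrays from 153 to 304 with a median of 197. The highest ctrl value, 739, was the 12 h array. IL27 was lower at all 6 times, by 0.31 to 1.56, and the fitted difference was -0.53 ± 0.09 (means 336 and 210, 95% interval -0.70 to -0.35, adjusted p = 3.5e-05). Without the 12 h ctrl array it was -0.40 (adjusted p = 2.8e-05), and it was called in 30 of 30 alternatives, with adjusted p from 3.2e-06 to 0.0077. It was the 1 receptor of 6 called in the middle window, in which 10.7% of genes were. Markers moved in the same window: Cd4 was lower with IL-27 by 0.52 ± 0.08, Cd3g by 0.36 ± 0.09, the CD8 marker Cd8b1 by 0.58 ± 0.11 and the B cell marker Ighm by 0.65 ± 0.17 (adjusted p from 1e-05 to 0.012). Cd2 was higher by 1.17 ± 0.19, so the CD4 list gave 1 higher and 2 lower of 7, and the B cell list 0 higher and 1 lower of 3 tested. The summed B cell markers ran from 536 to 3470 in ctrl and from 450 to 3549 with IL-27, with Pax5 and Blnk never above the array's median, and their part in the result was not tested. The marker differences of this window include the 12 h ctrl array, and values without it are not given.

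Late in culture the Tnfrsf1b levels lay close together. The ctrl arrays ran from 132 to 199 (median 149) and the IL27 arrays from 112 to 178 (median 144), ranges that overlapped over most of their length. IL27 was lower at 6 of 8 late times and higher at 54 and 60 h. The late difference was -0.08 ± 0.07 (-0.23 to 0.08, adjusted p = 0.55). Its change from middle to late was 0.45 ± 0.11 (adjusted p = 0.0099), the 1 call among 6 receptors in a contrast where 8.11% of genes were called. Without the arrays of suffix d it was 0.49 with an adjusted p of 0.099, and over 30 alternatives adjusted p ran from 0.00082 to 0.099. In control cells Tnfrsf1b fell by 0.92 ± 0.28 from early to middle (adjusted p = 0.0064) and by 0.90 ± 0.23 from middle to late (adjusted p = 0.0020). The first of these was -0.65 without suffix d (adjusted p = 0.13) and -0.41 without 2 h (adjusted p = 0.26). With IL-27 it fell by 1.04 ± 0.23 and by 0.44 ± 0.18 (adjusted p = 0.00024 and 0.035), and the later fall was called in 18 of 27 alternatives. Without 2 h the earlier fall was -0.60 (adjusted p = 0.025). The second probe set, 1448951_at, lay above its array's median on 8 of 52 arrays. Its early difference was -0.16 ± 0.07 (adjusted p = 0.34) and its middle difference -0.08 ± 0.05 (adjusted p = 0.28). With the mean of both probe sets the middle difference of the gene was -0.31 (adjusted p = 0.00026) and the falls in ctrl -0.54 and -0.50 (adjusted p = 0.0098 and 0.0050).

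**Figure D2:**
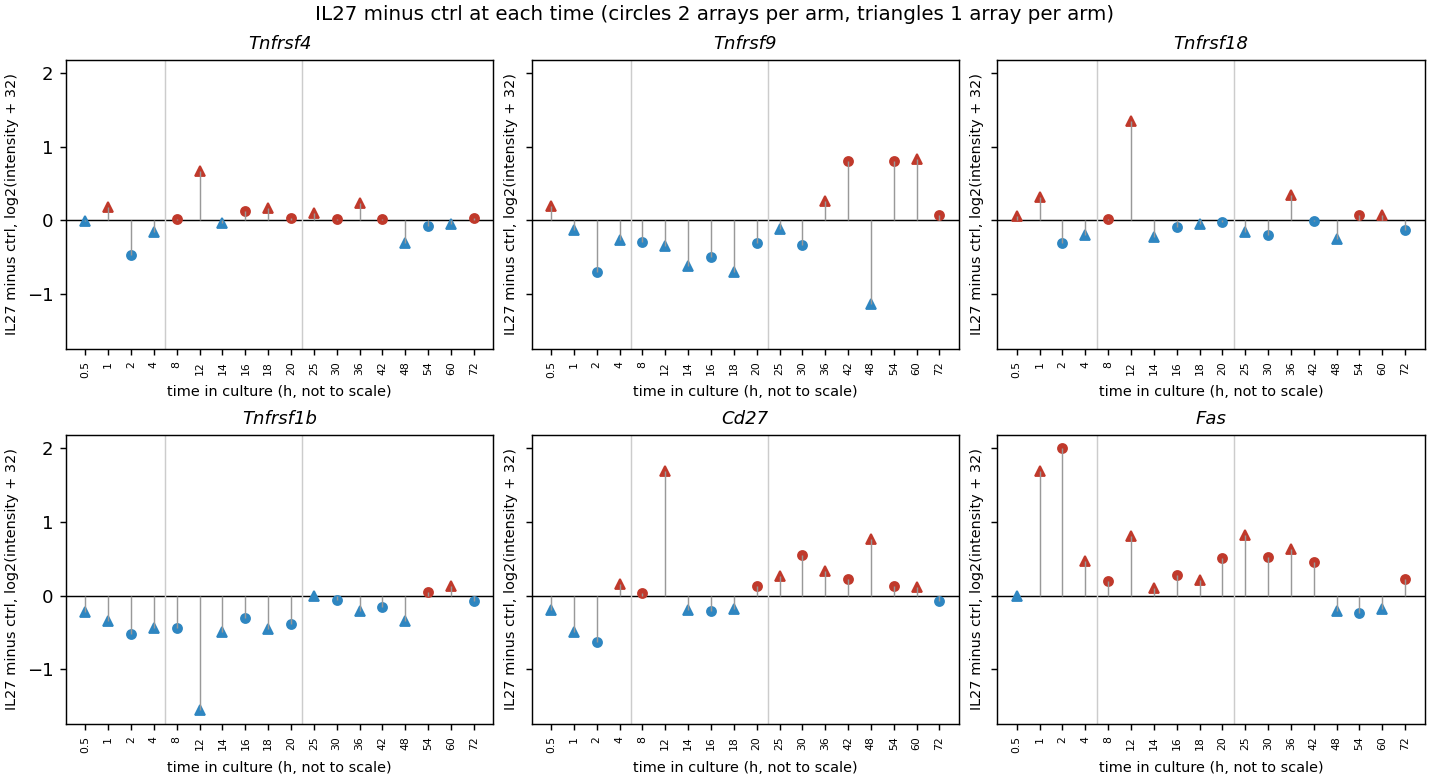
Difference of IL27 from ctrl in log2(intensity + 32) at each of the 18 times for each receptor (circles, 2 arrays per arm; triangles, 1; red above 0, blue below; time in hours, not to scale; vertical lines, window limits). Fas stood at 1.69 and 2.00 at 1 and 2 h, Tnfrsf1b lay below 0 at every early and middle time and at 6 of 8 late ones, and Tnfrsf4, Tnfrsf18, Tnfrsf1b and Cd27 had their largest difference at 12 h, on 1 array per arm.

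Tnfrsf9, which marks recently stimulated T cells, had 3 probe sets. Probe set 1421481_at lay above the median on 0 of 52 arrays, 1428034_a_at on 47 and 1460469_at, which stands for the gene, on 52. In ctrl the latter read 39.2, 54.0, 87.2, 157 and 835 at 0.5, 1, 2, 2 and 4 h, and with IL-27 49.9, 46.3, 53.3, 69.2 and 688. In both arms the 4 h array was far above the earlier ones. The early difference was -0.32 ± 0.23 (-0.79 to 0.15, adjusted p = 0.72).

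In the middle window Tnfrsf9 was below ctrl at all 6 times with IL-27, by 0.30 to 0.69. The ctrl arrays ran from 416 to 1092 (median 500) and the IL27 arrays from 298 to 812 (median 338), and these ranges overlapped. The difference of -0.43 ± 0.17 (-0.78 to -0.08) had an adjusted p of 0.11, and it reached 0.044 as a mean of single-time contrasts, in a range of 0.044 to 0.31 over 30 alternatives. The probe set 1428034_a_at gave -0.11 ± 0.19 (adjusted p = 0.76), with IL27 higher at 12 h, 208 against 91.8.

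Late values of Tnfrsf9 spread widely. At 25, 30, 30 and 36 h ctrl read 304, 321, 325 and 324, and IL27 277, 245, 256 and 397. At 42 h the ctrl arrays were at 452 and 424 and the IL27 arrays at 753 and 832, and at 54 h at 898 and 1073 against 1318 and 2302. IL27 was thus 1.81-fold and 1.84-fold as high at those times, with no overlap of the arrays, and 1.81-fold at 60 h. At 48 h the order was the other way, 2265 in ctrl and 1019 with IL-27, on 1 array per arm, and 1428034_a_at also read higher in ctrl there (1433 and 667). At 72 h the arms overlapped, with 2027 and 1809 in ctrl and 1630 and 2517 with IL-27. Over the window the difference was 0.22 ± 0.15 (-0.09 to 0.52, adjusted p = 0.36). It was 0.10 without 42 h or without 54 h, 0.05 without suffix d, 0.33 without 30 h and 0.34 without 48 h, with adjusted p from 0.092 to 0.91 over 30 alternatives.

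The change of the Tnfrsf9 effect from middle to late was 0.64 ± 0.23 (adjusted p = 0.073). Without 48 h it was 0.77 (adjusted p = 0.017) and without 30 h 0.75 (adjusted p = 0.042), and 3 of 30 alternatives called it, with adjusted p from 0.017 to 0.21. Along the culture Tnfrsf9 rose from early to middle by 1.82 ± 0.51 in ctrl (adjusted p = 0.0030) and by 1.71 ± 0.54 with IL-27 (adjusted p = 0.0070, and 0.076 without 2 h). With the mean of its probe sets these rises were 1.08 and 1.04 (adjusted p = 0.0077 and 0.014). The early window joins low values up to 2 h with a high one at 4 h. By time, ctrl means were 835 at 4 h, 795 at 8 h, 420 at 20 h and 304 at 25 h. With IL-27 they were 688, 623, 335 and 277, so each arm stood lower at 20 and 25 h than at 4 h. From middle to late the rise with IL-27 was 1.01 ± 0.43 (adjusted p = 0.045), called in 13 of 27 alternatives with adjusted p from 0.0061 to 0.24. In ctrl that change was 0.36 ± 0.41 (adjusted p = 0.47), and the contrast of 0.64 is the test of the difference between the arms.

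Tnfrsf4, a costimulatory receptor of activated CD4 T cells, rose steeply in both arms and no difference between them was called. Probe set 1420351_at read 173, 311, 859, 1177 and 3678 in ctrl at 0.5, 1, 2, 2 and 4 h, and 173, 357, 589, 882 and 3288 with IL-27. Each arm climbed at every step, and the largest early difference, -0.46, was at 2 h. From 8 h on it stayed high, with a dip in both arms. Means went from 5880 in ctrl and 5994 with IL-27 at 8 h to 3890 and 3926 at 30 h. At 54 h they were 6510 and 6182. Middle values ran from 3947 to 6013 in ctrl (median 5132) and from 4565 to 6278 with IL-27 (median 5392). Late values ran from 3581 to 6754 (median 5733) and from 3925 to 6313 (median 5705). The rise from early to middle was 2.69 ± 0.37 in ctrl (adjusted p = 7.2e-07) and 3.0 ± 0.34 with IL-27 (adjusted p = 4.8e-08), and the changes from middle to late were 0.09 ± 0.30 and -0.04 ± 0.27. The IL-27 differences were -0.18 ± 0.10 early (-0.39 to 0.03), 0.13 ± 0.08 in the middle (-0.03 to 0.29) and within -0.13 to 0.13 late, with adjusted p of 0.28 or more. In rank order over times, 5 of 17 steps between neighbours with IL-27 and 3 of 17 in ctrl were wider than the median gap of 0.17 between duplicate arrays, all of them between the lowest-ranked times.

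Tnfrsf18, the neighbour of Tnfrsf4 and a receptor high on regulatory T cells, rose in 2 stages. Probe set 1422303_a_at read 498, 520, 732, 911 and 1726 in ctrl at 0.5, 1, 2, 2 and 4 h, and 521, 653, 695, 616 and 1502 with IL-27. In both arms 4 h was the highest early array. Middle values ran from 1028 to 2558 in ctrl (median 2161) and from 1795 to 2683 with IL-27 (median 2114), the low ctrl value being the 12 h array. Late values ran from 1834 to 5458 (median 3919) and from 1645 to 5270 (median 3430), lowest at 25 h in both arms and highest at 72 h in ctrl and 60 h with IL-27. The rise from early to middle was 1.31 ± 0.29 in ctrl and 1.5 ± 0.27 with IL-27 (adjusted p = 0.00035 and 2.8e-05), and from middle to late 0.74 ± 0.23 and 0.60 ± 0.22 (adjusted p = 0.011 and 0.020). Without the suffix d arrays the later rises had adjusted p of 0.064 and 0.072. The IL-27 differences were -0.09 ± 0.13 early (-0.35 to 0.18), 0.10 ± 0.10 in the middle (-0.09 to 0.29) and -0.04 ± 0.08 late (-0.21 to 0.13), none called. Its middle value was -0.06 without the 12 h ctrl array and 0.17 as a mean of single-time contrasts (adjusted p = 0.038, in a range of 0.038 to 0.71). Duplicate arrays of Tnfrsf18 differed by a median of 0.10, the least of the 6 genes, and 8 of 17 steps in rank order were wider than that in each arm. Of 7 tested regulatory T cell markers 1 was higher with IL-27 early, 1 higher and 3 lower in the middle and 0 higher and 3 lower late, with a summed level of 907 to 5567 in ctrl and 1033 to 5019 with IL-27, and Ikzf2 and Itgae were never above the array's median. Over all genes 2.32%, 10.7% and 18.5% were called in those windows. Along the ctrl course 1 of the 7 rose and 2 fell from early to middle, where 64.9% of genes were called. From middle to late 5 rose and 0 fell, where 48.1% of genes were called, with a median of 0.61 against -0.02 over all genes. The part of these markers in the Tnfrsf18 values was not tested.

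Cd27, a costimulatory receptor of naive and memory T cells, fell from window to window in both arms. Probe set 1452389_at read 856, 727, 1117, 1645 and 926 in ctrl at 0.5, 1, 2, 2 and 4 h, and 743, 505, 724, 1028 and 1033 with IL-27. The IL27 array was lower at 0.5 and 1 h and higher at 4 h, and the 2 h arrays did not overlap, at 724 and 1028 against 1117 and 1645. Middle values ran from 165 to 698 in ctrl (median 529) and from 307 to 606 with IL-27 (median 542), with the 12 h array lowest in ctrl. Late values ran from 159 to 383 (median 250) and from 210 to 395 (median 309), and IL27 was higher at 7 of 8 times. Within the late window the means were lowest at 30 h in ctrl (160) and at 25 h with IL-27 (214), and stood at 367 and 351 at 72 h. The fall from early to middle was called in both arms: Cd27 fell by 1.07 ± 0.26 in ctrl (adjusted p = 0.00071) and by 0.57 ± 0.17 with IL-27 (adjusted p = 0.0041). From middle to late it fell by 0.86 ± 0.20 and by 0.74 ± 0.13 (adjusted p = 0.0012 and 5.9e-05).

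The IL-27 difference of Cd27 was -0.36 ± 0.19 early (adjusted p = 0.50), 0.14 ± 0.14 in the middle (adjusted p = 0.57, and -0.06 without the 12 h ctrl array) and 0.26 ± 0.12 late (0.01 to 0.51, adjusted p = 0.15). In the late window 0 of the 6 receptors were called by limma, where 18.5% of genes were. With an unadjusted limma p under 0.05 there was 1, Cd27, where 2132 of 7163 genes had such a p. Without the 12 h ctrl array the late value of Cd27 was 0.26 with an adjusted p of 0.041 (range over 30 alternatives 0.041 to 0.35) and its late minus early change 0.62 with 0.018 (range 0.018 to 0.51), while with all arrays that change was 0.62 ± 0.23 (adjusted p = 0.096). Duplicates of Cd27 differed by a median of 0.28, and 1 of 17 rank steps with IL-27 and 2 of 17 in ctrl were wider.

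Across the 6 receptors the median difference was -0.25 early, 0.12 in the middle and 0.11 late, beside -0.03, -0.02 and -0.01 over all genes tested. Without the 12 h ctrl array the middle median was -0.06, beside -0.01 over all genes. These medians join genes that moved in opposite directions, such as Fas and Tnfrsf1b. For the 7 CD4 T cell markers tested the medians were -0.19 early, -0.18 in the middle and 0.14 late. Of these markers 0 were higher and 2 lower early, 1 higher and 2 lower in the middle and 2 higher and 1 lower late. Over all genes 2.32%, 10.7% and 18.5% were called in these windows, and the part of the markers in the receptor values was not tested. Over the 36 means of arm and time, the levels of Tnfrsf9 and Tnfrsf18 correlated at 0.92, of Tnfrsf4 and Tnfrsf18 at 0.86 and of Tnfrsf1b and Cd27 at 0.60, as a description of points that share time and array. The IL-27 differences of the neighbouring genes Tnfrsf4 and Tnfrsf18 correlated at 0.83 over 18 times, and both had their highest value at 12 h, where the ctrl array stands apart.

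**Figure D3:**
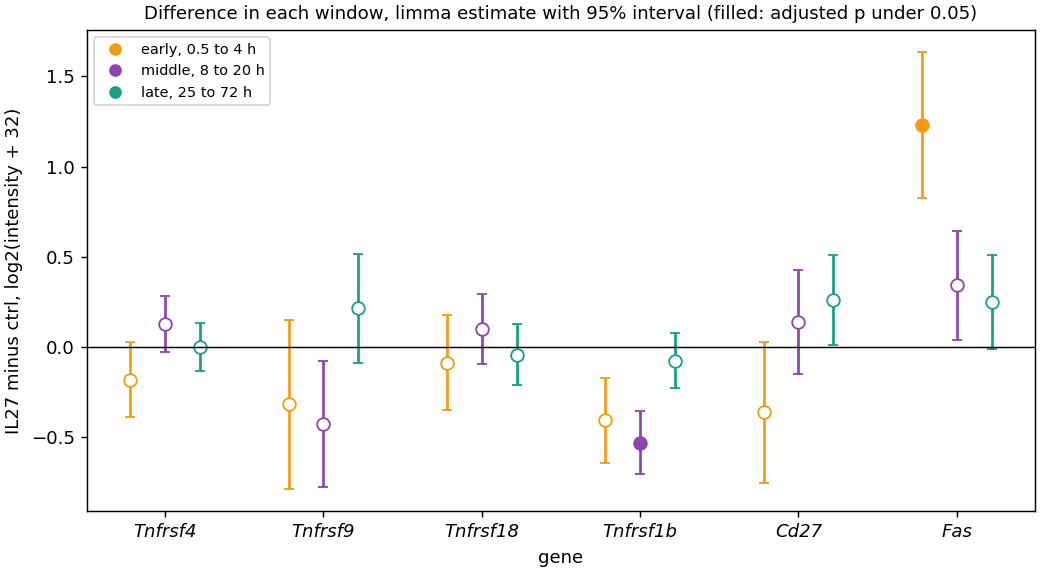
Difference of IL27 from ctrl in log2(intensity + 32) for each receptor in the early, middle and late window, as limma estimates with 95% intervals (filled, adjusted p under 0.05; open, not called). The early Fas value of 1.23 and the middle Tnfrsf1b value of -0.53 are filled, and the other 16 are open.

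The second array type gave a check at 3 times and a value before stimulation. At 0 h Tnfrsf4 read 289, Tnfrsf9 130, Tnfrsf18 749, Tnfrsf1b 170, Cd27 2354 and Fas 1005. At 4, 16 and 48 h ctrl Tnfrsf4 read 4479, 6222 and 8048, Tnfrsf18 3091, 3744 and 5933, and Tnfrsf9 1725, 591 and 972. All 3 were thus above their 0 h array at each later time. Cd27 went from 2924 at 4 h to 1230 and 658, and Tnfrsf1b from 852 to 232 and 138, so both were highest at 4 h. Fas read 1963, 356 and 1185, lowest at 16 h. These single arrays have no replicate and the array types were normalized apart, so levels are not set against HT_MG-430A.

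With IL-27 on these arrays, Fas read 1775, 535 and 1327 at 4, 16 and 48 h, below ctrl at 4 h and above it at 16 and 48 h. At 4 and 48 h the order of Fas was the opposite of the HT_MG-430A pairs. Those read 334 with IL-27 against 232 in ctrl at 4 h, and 267 against 312 at 48 h. At 16 h Fas was higher with IL-27 on both array types. The times of the large HT_MG-430A difference, 1 and 2 h, are not on this array type. Tnfrsf1b read 602, 186 and 147, below ctrl at 4 and 16 h and near it at 48 h. Its second probe set, 1448951_at, was above the array's median on 2 of 9 arrays, those of 4 h. There it read 133 with IL-27 and 126 in ctrl, the opposite order. At 16 and 48 h that probe set read 58.2 and 42.9 with IL-27 and 67.6 and 61.4 in ctrl. Tnfrsf9 read 961, 372 and 1842, below ctrl at 4 and 16 h and above it at 48 h, the opposite of the 48 h HT_MG-430A pair. Tnfrsf18 was below ctrl at all 3 times, at 2316, 2983 and 4590, a difference of -0.37 ± 0.10 (unadjusted p = 0.0057, limma adjusted p = 0.36). Tnfrsf4 read 3671, 6397 and 6940 and Cd27 2506, 1131 and 635. With 6 arrays and 2 residual degrees of freedom, limma called 0 of 6 receptors and 0% of 6055 genes, with 436 genes at an unadjusted p under 0.05 and 0 called under each of the alternatives with all 6 arrays. The Tnfrsf9 difference was -0.18 ± 0.30 (adjusted p = 0.89), and without the 48 h pair -0.72 (adjusted p = 0.0030, range over alternatives 0.0030 to 0.99). The fit without that pair rests on 1 array per arm at 4 and at 16 h. It has fewer than 2 residual degrees of freedom, so its p-value carries little weight. The GFPP and GFPN arrays read 7916 and 7640 for Tnfrsf4, 1349 and 1263 for Tnfrsf9, 5764 and 5364 for Tnfrsf18, 258 and 187 for Tnfrsf1b, 871 and 903 for Cd27 and 1186 and 1212 for Fas. The 10 regulatory T cell markers measured summed to 9542 on the GFPP and 8059 on the GFPN array, 1981 to 5460 on the ctrl and 2620 to 7335 on the IL27 arrays of this type. Foxp3, the defining factor of these cells, Ikzf2 and Itgae never lay above the array's median.

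**Figure D4:**
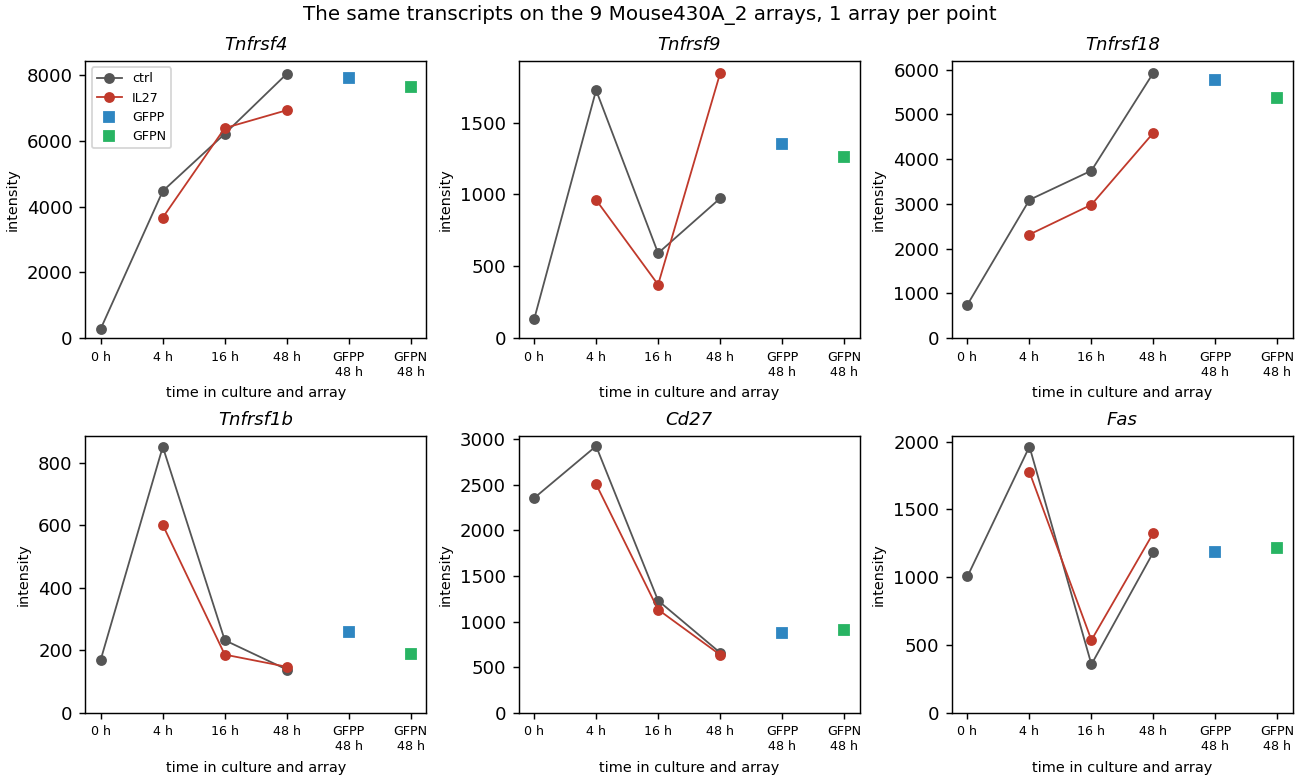
Intensity (linear axis from 0) of each receptor on the 9 Mouse430A_2 arrays, 1 array per point: ctrl at 0, 4, 16 and 48 h (grey), IL27 at 4, 16 and 48 h (red), and the arrays named GFPP and GFPN at 48 h (squares). Tnfrsf18 with IL-27 lay below ctrl at all 3 times and Tnfrsf9 with IL-27 was at 1842 at 48 h against 972 in ctrl.

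The ligands of these receptors were measured by 6 of 7 listed genes, all tested. None was called early by limma, with adjusted p of 0.46 or more, where 2.32% of 7163 genes were called. In the middle window 2 of 6 were higher with IL-27 and 1 lower, where 10.7% of genes were called. The higher ones were the TNFR2 ligands, Lta at a mean of 1089 in ctrl and 2330 with IL-27 (1.32 ± 0.23) and Tnf at 820 and 1328 (0.83 ± 0.14, both adjusted p = 7.4e-05). Fasl, the ligand of Fas, was lower, at 274 in ctrl and 90.5 with IL-27 (-1.43 ± 0.16, adjusted p = 3.1e-08). This window holds the 12 h ctrl array, without which 583 genes were called there in place of 764. Ligand values without that array are not given. In the late window 4 of 6 were lower with IL-27 and 0 higher, where 18.5% of genes were called. Means in ctrl and with IL-27 were 303 and 52.6 for Fasl (-1.85 ± 0.14, adjusted p = 4e-13) and 160 and 12.4 for the Cd27 ligand Cd70 (-1.64 ± 0.22, adjusted p = 4.5e-07). They were 43.04 and 22.96 for the OX40 ligand Tnfsf4 (-0.42 ± 0.07, adjusted p = 5.1e-06) and 2599 and 1703 for Lta (-0.59 ± 0.20, adjusted p = 0.033). Along the ctrl course 3 of 6 ligands rose from middle to late and 0 fell, where 48.1% of genes were called. Lta was among them, with a rise of 1.47 ± 0.40 (limma adjusted p = 0.0041). The CD137 ligand Tnfsf9 gave -0.48 ± 0.16 in the middle (adjusted p = 0.054) and -0.16 ± 0.14 late, and Tnf gave -0.03 ± 0.12 late. The median of the list was -0.16 early, -0.15 in the middle and -0.51 late, beside -0.03, -0.02 and -0.01 over all genes. Fas and Fasl thus had called differences of opposite sign in separate windows, Fas early and Fasl in the middle and late ones.

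Of 22 other receptors of the superfamily 19 were named on the arrays and 8 tested. Early 0 were called by limma, where 2.32% of genes were, with adjusted p of 0.31 or more. In the middle window, where 10.7% of genes were called, Tnfrsf13c, the BAFF receptor, was lower (-0.35 ± 0.11, adjusted p = 0.031). Its value without the 12 h ctrl array is not given. Late, where 18.5% of genes were called, 1 was lower and 1 higher. Tnfrsf13c was lower at dim levels (39.05 and 18.99, -0.45 ± 0.09, adjusted p = 0.00041) and Tnfrsf1a, the death domain TNF receptor, was higher (107 and 132, 0.22 ± 0.07, adjusted p = 0.026). The medians of the list were -0.03, -0.02 and 0.0008.

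Of all 7163 genes tested, limma called 2.32% early, 10.7% in the middle window and 18.5% late, and the next counts stand beside these shares. Downstream of the receptors, 15 of 20 TRAF adaptors and proximal signalling genes were tested, with 0 called early, 2 higher and 2 lower in the middle and 2 higher and 2 lower late. The called genes were Traf4 (0.65 ± 0.16) and the NF-kB inducing kinase Map3k14 (0.24 ± 0.07) higher and the kinase Map3k7 (-0.26 ± 0.07) and Traf5 (-0.25 ± 0.07) lower in the middle window. Late, Traf5 was lower with IL-27 by 0.36 ± 0.06 (limma adjusted p = 2.3e-05) and Map3k7 by 0.34 ± 0.06, and Birc3, a ubiquitin ligase that binds TRAFs, was higher by 0.26 ± 0.07. Of 12 death receptor signalling genes 9 were tested. Daxx, first described as a Fas-binding protein, was the 1 called early, in the window of the Fas difference (917 and 1838, 0.88 ± 0.14, adjusted p = 0.00012). Bid, cleaved by caspase-8 below death receptors, was lower with IL-27 by 0.35 ± 0.09 in the middle and by 0.61 ± 0.08 late. Ripk3 (0.72 ± 0.09) and Casp6 (1.25 ± 0.17) were higher with IL-27 late. The NF-kB list gave 2 higher of 14 early, Bcl3 (1.04 ± 0.16) and Icam1 (1.45 ± 0.24), 3 higher and 4 lower in the middle, and 2 higher and 7 lower late. Late Bcl3 was higher with IL-27 by 1.37 ± 0.10, and Tnip2, an inhibitor of NF-kB activation, by 0.50 ± 0.07, while the NF-kB subunit Rel was lower by 0.80 ± 0.10 (limma adjusted p from 4.1e-13 to 1.3e-06). Middle values of these lists include the 12 h ctrl array, and values without it are not given.

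Genes with the most similar patterns were looked up among the 7163 genes tested, as a description. By level over 36 means of arm and time, Tnfrsf4 was closest to Rps27l (Pearson r 0.97), Utp11 and Fabp5, Tnfrsf9 to Polk (0.93), Bhlhe40 and Fam162a, and Tnfrsf18 to Ostc (0.95), Aldoa and Pgk1. Tnfrsf1b was closest to Med14 (0.92), Slc41a1 and Bcl6, Cd27 to Mir142 (0.94), Trav9d-3 and Mob1a, and Fas to Sat1 (0.85), Mov10 and Parp9. By the IL27 minus ctrl difference over 18 times, the first gene was Kat7 for Tnfrsf4 (0.89), Rgs11 for Tnfrsf9 (0.90), Tnfsf14 for Tnfrsf18 (0.94), Tmem258 for Tnfrsf1b (0.95), 1110008P14Rik for Cd27 (0.93) and Ppa1 for Fas (0.87). The next were Tnfsf14 and Icmt for Tnfrsf4, Ing2 and Ier3 for Tnfrsf9, Rnf5 and Rsrc2 for Tnfrsf18, Snapc2 and Pigo for Tnfrsf1b, Ptprcap and Ino80b for Cd27, and Pnpt1 and Dnajc2 for Fas. The points share arrays and times, the 12 h ctrl array among them. At 12 h the differences of Tnfrsf4, Tnfrsf18, Tnfrsf1b and Cd27 were 0.67, 1.36, -1.56 and 1.70, the largest of their 18 times. A high r over 18 points can rest on 1 such point, and r without 12 h was not computed. These likenesses are therefore not read as shared responses to IL-27.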

How the data were processed

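Total RNA (6 µg, Trizol) was made into biotin-labelled cRNA, per the labels' protocols. The deposited tables hold 1 linear intensity per probe set and array, made by the authors with MAS5, per the submitters' processing notes. Settings of MAS5 were not given in the sources used. Array medians of a type were alike, so no further normalization was applied, and the array types were tested apart. Of 22626 probe sets, 20173 had 1 gene, 942 several and 1511 none in the platform tables.

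The brightest probe set stood for its gene. Genes above the median of their array on 5 or more of a fit's arrays were kept (3 where a time of Mouse430A_2 was left out). The deposited intensities were put on the scale log2(intensity + 32) and fitted in R 4.3.3 by limma 3.58.1 (lmFit, eBayes with trend, Benjamini-Hochberg). The model of the effect, over 52 HT_MG-430A arrays, held a factor for time plus 1 IL27 coefficient per window. Courses were fitted on the 26 arrays of an arm, with window as a factor. Times of a window thus served as replicates, and the spread of a course fit holds the change of level within a window. In the model of the effect, the spread holds the change of the IL-27 difference between times of a window. The scripts were tested on simulated data. The text names all 6 receptors, all measured ligands, per list up to 3 members with the smallest adjusted p in a window, and per receptor the 3 genes most alike. Cell type marker genes named singly, and Map3k14, were chosen after their values were seen. Members, lists and windows were chosen with earlier results of these data known. Alternatives were other pseudocounts, filters, normalization, probe set rules and moderation, arrays or times left out, a block and single-time contrasts.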

Additional observations from a re-analysis of the deposited data

Results flagged for a closer look

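Among 30 groups of 4 to 9 arrays, 24 of a receptor in an arm of the early or middle window on HT_MG-430A and 6 of its ctrl arrays on Mouse430A_2, 6 held an array far from the nearest other, and chance gives about 1 in 20. The late groups, of 12 arrays, were not examined. All groups join different times of culture, and receptors share arrays, so that rate cannot say whether 6 is more than chance would give. In the early window the 4 h IL27 array was the highest of 5 for Tnfrsf9 (688) and for Tnfrsf18 (1502). In the middle window the highest Tnfrsf9 arrays of 9 were at 8 h, 812 with IL-27 and 1092 in ctrl, and the other 8 h array of each arm read 435 and 498. The lowest Tnfrsf18 ctrl array was the one at 12 h (1028), and the lowest Cd27 IL27 array was at 20 h (307), where the other 20 h array read 505.

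The IL-27 effect on Fas differed between the late and the early window by -0.98, and that on Tnfrsf1b between the late and the middle window by 0.45, each by a test of the difference itself.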

How the results depend on the processing

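No result took the opposite sign under an alternative while called. The early count of 1 receptor (166 genes called) was 2 with a pseudocount of 100 (198), the mean of all probe sets (186) or without the 12 h ctrl array (236), 0 without the suffix d arrays (57) and 0 to 2 with a time left out. Averaging single-time contrasts made the middle count of 1 (764 genes) into 4 (1609). The late count of 0 (1325 genes) was 1 without the 12 h ctrl array (1693) and 0 to 1 with a time left out. The late minus early count of 1 (508 genes) was 3 without that array (730), 0 without suffix d (261) and 0 to 3 with a time left out, and the late minus middle count of 1 (581) was 0 without suffix d (338) and 1 to 2 with a time left out. The Mouse430A_2 count of 0 was 0 to 1 with a time left out. With IL-27 the late minus middle count of 5 (4166 genes) was 3 with no filter (4378), 2 without suffix d (3311) and 2 to 5 with a time left out. Leaving out arrays leaves fewer samples, and otherwise the cause was not tested.

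Same-suffix arrays of the arms deviated together at 7 of the 8 times with 2 arrays per arm (correlations of 0.23 to 0.76) but not at 30 h (-0.01). The labels do not explain the suffix, and the main model did not hold it as a pairing, so it leaves out a likeness seen at most of these times. With a replicate block of time and suffix the late minus middle count was 2, as Tnfrsf9 (0.64) had a limma adjusted p of 0.039. Genes called with the block numbered 223 early, 1060 in the middle and 1654 late, against 166, 764 and 1325 in the main model. The block changed no other call of a receptor.

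At 10 of 18 times 1 array per arm was measured, so single-time values there have no replicate. Probe sets near the array's median, such as those of Tnfsf4 and Tnfrsf13c, limit what a log2 difference can show.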
